A study of Homo sapiens with 12 samples.

Results

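TXNIP, 4 facilitative hexose transporter genes (SLC2A1, SLC2A3, SLC2A6 and SLC2A10) and the hexokinase genes HK1 and HK2 were followed in MDA-MB-231 cells carrying an shRNA against HDAC5 or LSD1. They are 7 of the 11963 genes that had at least 1 probe set annotated to a single symbol, and they were read by 13 of the 22215 probe sets tested. The members were selected on their measured log2 values in these arrays, as genes of glucose uptake of which some differed from scramble in 1 experiment or in both. Their differences between shRNA and scramble are therefore described with their error. Where a member is said below to pass a threshold, that comes from the limma fit over all probe sets. Nothing is read from it as a test of the members. TXNIP differed most with HDAC5 shRNA, where its signal was 7.72-fold to 12.6-fold lower on its 3 probe sets, and with LSD1 shRNA it was 2.02-fold to 3.02-fold higher. SLC2A10 was 1.95-fold lower with HDAC5 shRNA and, with LSD1 shRNA, 8.17-fold lower by signals so dim on all 3 shRNA arrays that the size is not exact, and SLC2A3 had the directions of TXNIP in smaller size.

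TXNIP is an alpha-arrestin that binds reduced thioredoxin and promotes the internalisation of the glucose transporters GLUT1 and GLUT4, so that more TXNIP goes with less glucose uptake. Its own transcription is driven by the glucose-sensing factor MondoA (gene MLXIP) with its partner MLX, which bind paired E-box-like sites when glucose 6-phosphate is plentiful, and hexokinases make that glucose 6-phosphate from the sugar the transporters let in. In breast cancer cells TXNIP is known as a brake on glucose uptake and growth.

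MDA-MB-231 is an established human triple-negative breast cancer cell line of mesenchymal character. All 12 samples received lentiviral shRNA particles under normal culture, and they form 4 groups of 3 arrays: HDAC5 shRNA (replicates 1, 2 and 3), a scramble shRNA set with no target in its titles (replicates 1, 2 and 3), LSD1 shRNA (replicates 1, 2 and 3) and a scramble shRNA set marked LSD1 (replicates A, B and C). The set without a target was taken as the control of HDAC5 shRNA because the other set names LSD1, an assignment that rests on the labels alone. HDAC5 belongs to the class IIa histone deacetylases, and LSD1, the product of KDM1A, is a demethylase of histone lysines. The labels call the replicates biological, and the sources used here do not give the number of hairpins per target, any selection of transduced cells, the time between transduction and harvest or what separates the replicates. The p-values below then set each difference against the spread between these arrays only.

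The targeted transcripts followed the labels. HDAC5 shRNA arrays read 6.29 ± 0.18 (log2, mean ± SD, n = 3) for HDAC5 on 202455_at, against 7.40 ± 0.17 on the scramble arrays, so the transcript differed by -1.11 (SE 0.11, limma, adjusted p = 4.72e-05). LSD1 shRNA arrays read 6.63 ± 0.17 for KDM1A on 212348_s_at, against 9.72 ± 0.09 on the scramble arrays, so it differed by -3.08 (SE 0.12, adjusted p = 5.42e-05). All 6 markers of the line (VIM, CD44, AXL, CAV1, CAV2 and MSN) were between 10.78 and 13.82 on every array. Of 8 luminal breast markers 1 (PGR) lay under the array's lower quartile on all 12 arrays, as did 2 of 6 blood markers (PTPRC and LYZ) and 3 of 7 endothelial or fibroblast markers (VWF, CDH5 and LUM). The mean log2 signal of the endothelial or fibroblast list was 4.85 to 4.88 in scramble and 4.59 to 4.68 with HDAC5 shRNA, and 5.14 to 5.26 in scramble and 5.37 to 5.55 with LSD1 shRNA. The blood list lay between 4.72 and 4.80 in scramble and between 4.69 and 4.79 with HDAC5 shRNA, and between 4.96 and 5.06 in scramble and between 5.08 and 5.19 with LSD1 shRNA. Luminal markers had means of 6.97 to 7.01 and 6.96 to 6.99 in the HDAC5 experiment, and 7.27 to 7.43 and 7.28 to 7.33 in the LSD1 experiment. The signal of the ACTB 3′ control probe set minus its 5′ one, a measure of RNA integrity and labelling, was 0.90 ± 0.06 in scramble and 0.68 ± 0.08 with HDAC5 shRNA, and 1.30 ± 0.06 in scramble and 1.43 ± 0.12 with LSD1 shRNA. The part of these shifts in the results that follow was not tested. Array medians were 6.58 to 6.64 in the HDAC5 experiment and 7.05 to 7.15 in the LSD1 experiment, so that levels were compared within an experiment unless a common scale is named.

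The upstream sequences of the 2 genes with the largest differences are shown first, since TXNIP is a textbook target of glucose-sensing factors. They are RefSeq sequences on GRCh38.p14 of the 250 bases before an annotated start, read 5′ to 3′ on the gene's strand, and 6 of the 7 members had such entries. The TXNIP window is chr1:145996580-145996829 on the minus strand and the SLC2A10 window is chr20:46709399-46709648 on the plus strand. Capitals mark paired CACGNG sites 5 bases apart (from 88 to 72 bases before the start), CCAAT in either orientation and TATATA.
TXNIP: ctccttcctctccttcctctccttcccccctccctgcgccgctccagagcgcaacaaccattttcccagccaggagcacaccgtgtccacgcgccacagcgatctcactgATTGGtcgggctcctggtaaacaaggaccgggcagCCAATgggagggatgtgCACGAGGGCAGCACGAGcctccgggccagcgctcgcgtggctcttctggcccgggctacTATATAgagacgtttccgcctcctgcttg
SLC2A10: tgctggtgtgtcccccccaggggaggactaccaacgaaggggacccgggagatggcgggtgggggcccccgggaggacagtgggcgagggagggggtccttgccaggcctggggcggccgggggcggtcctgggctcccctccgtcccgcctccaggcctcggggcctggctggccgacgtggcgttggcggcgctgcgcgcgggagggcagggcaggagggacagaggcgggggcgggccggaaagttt

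In the TXNIP window the paired CACGNG sites were found in 1 copy, CCAAT in 2 copies (140 to 136 bases before the start on the opposite strand, as ATTGG, and 105 to 101 bases before it) and TATATA in 1 copy (29 to 24 bases before it). Over 35116 upstream windows of the same length and searched on both strands, the paired sites were in 16 windows (0.0456%), single CACGNG in 26.7%, CACGTG in 6.34%, CCAAT in 32% and TATATA in 3.73%. These motifs were chosen with the TXNIP sequence in view, and the paired sites hold 2 of the 4 CACGNG matches of that window. The window of the other annotated TXNIP start held none of these motifs, nor did that of SLC2A10. Windows of HK2 held 2 CCAAT at 1 start and 2 CACGTG at the other, the window of SLC2A6 held 2 CCAAT, that of SLC2A1 held 1, and 2 windows of HK1 held 1 each. Single CACGNG was also found in the windows of SLC2A6 and of the second HK2 start. A match of letters describes the sequence and shows no binding, and the arrays measured none.

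TXNIP was read by 3 probe sets, which are compared only with themselves. On 201010_s_at the log2 signal was 12.77, 12.80 and 12.87 on the 3 HDAC5-experiment scramble arrays and 9.81, 9.89 and 9.90 in the 3 HDAC5 shRNA arrays. Every HDAC5 shRNA array lay below every scramble array by a margin far wider than either group's spread. The group means were 12.81 ± 0.05 and 9.87 ± 0.05, a difference of -2.95 (SE 0.04), or 7.72-fold. In a bulk culture, fewer cells expressing a transcript and less of the transcript per cell cannot be told apart.

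The further TXNIP probe sets had larger differences in the same direction. On 201008_s_at the scramble arrays read 11.20, 11.41 and 11.67 and the HDAC5 shRNA arrays 7.62, 7.89 and 7.83, a difference of -3.65 (SE 0.11). On 201009_s_at the scramble arrays read 11.41, 11.54 and 11.66 and the HDAC5 shRNA arrays 8.05, 8.00 and 8.00, a difference of -3.52 (SE 0.06). Neither pair of groups overlapped. By the size of the difference on its brightest probe set, TXNIP was 8th of 11963 genes in the HDAC5 experiment. Leaving out any 1 array kept that difference between -2.97 and -2.92.

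In the LSD1 experiment TXNIP lay on the other side of its scramble arrays. On 201010_s_at the scramble arrays A, B and C read 9.28, 8.95 and 8.37 and the LSD1 shRNA arrays 9.99, 11.54 and 9.85. The groups did not overlap, but LSD1 shRNA array 2 stood well above the other two. The means were 8.87 ± 0.46 and 10.46 ± 0.94, a difference of 1.59 (SE 0.47), or 3.02-fold, and TXNIP was 84th of 11963 genes by size. Without LSD1 shRNA array 2 the difference was 1.05, and without array 3 it was 1.90.

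The same array was highest on every TXNIP probe set. On 201008_s_at scramble arrays A, B and C read 7.65, 7.19 and 6.97 and the LSD1 shRNA arrays 7.99, 9.57 and 7.84, a difference of 1.20 (SE 0.45) that was 0.65 without LSD1 shRNA array 2. On 201009_s_at the values were 8.07, 7.69 and 7.31 in scramble and 8.45, 9.52 and 8.15 with LSD1 shRNA, a difference of 1.02 (SE 0.37) that was 0.61 without that array. On both probe sets the lowest LSD1 shRNA array stayed above the highest scramble array, by a margin smaller than the SD of either group.

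**Figure D1:**
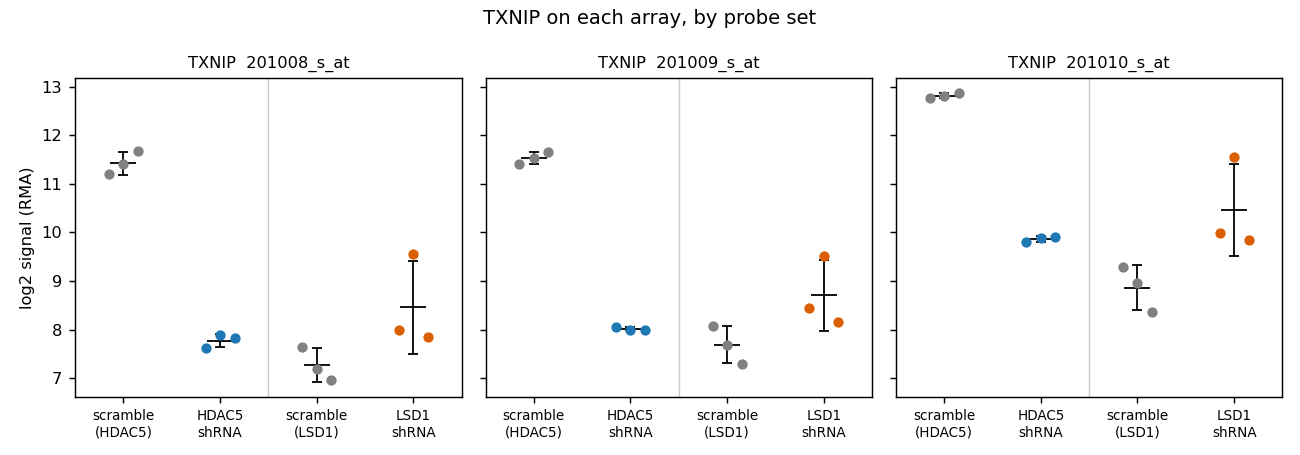
TXNIP signal (log2, RMA) on each of the 12 arrays, in 1 panel per probe set; points are arrays, horizontal lines are group means and bars are ± 1 SD (n = 3). On 201010_s_at scramble arrays sit between 12.77 and 12.87 in the HDAC5 experiment and, in the LSD1 experiment, between 8.37 and 9.28, and the highest LSD1 shRNA array reads 11.54.

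The scramble sets themselves were far apart for TXNIP. After quantile normalization over the 12 arrays, which puts them on a common scale, 201010_s_at read 13.00 ± 0.05 in the HDAC5 scramble set, 10.32 ± 0.94 with LSD1 shRNA, 10.01 ± 0.05 with HDAC5 shRNA and 8.70 ± 0.46 in the LSD1 scramble set. In that order the LSD1 shRNA and HDAC5 shRNA groups differed by less than the spread of the LSD1 shRNA arrays, while the outer groups stood clear of them in level. The scramble sets differed by 4.30, and 3 of 11963 genes, TXNIP included, differed by at least as much. The other members differed less between the scramble sets: by 0.95 for SLC2A3, 0.52 for SLC2A10, 0.18 for HK1, -0.40 for HK2, -0.60 for SLC2A6 and -0.77 for SLC2A1 (HDAC5 set minus LSD1 set). The experiment and whatever else separates the scramble sets cannot be told apart.

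SLC2A1 encodes GLUT1, the basal glucose transporter of most dividing cells and a cargo of TXNIP. On 201250_s_at its scramble arrays read 8.75, 8.72 and 8.75 and the HDAC5 shRNA arrays 8.89, 8.81 and 8.92 in the HDAC5 experiment. The groups did not overlap, with a difference of 0.14 (SE 0.05). Scramble arrays of the LSD1 experiment read 9.86, 9.98 and 9.74 and LSD1 shRNA arrays 9.67, 9.66 and 9.61, a difference of -0.21 (SE 0.09), again with no overlap. The second SLC2A1 probe set, 201249_at, read 4.66, 4.71 and 4.64 in scramble and 4.64, 4.62 and 4.84 with HDAC5 shRNA, which overlap and lie close to the lower quartile of the arrays. It read 6.11, 5.93 and 6.02 in the LSD1 experiment's scramble arrays and 5.76, 5.59 and 5.75 with LSD1 shRNA, a difference of -0.32 (SE 0.08). The largest SLC2A1 difference was 1.25-fold.

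SLC2A3 encodes GLUT3, a transporter of high glucose affinity best known from neurons. On 202499_s_at the control arrays of HDAC5 shRNA read 9.39, 9.43 and 9.18 and the HDAC5 shRNA arrays 8.30, 8.58 and 8.45. All 3 HDAC5 shRNA arrays were lower than all 3 scramble arrays, and the difference of -0.89 (SE 0.09), or 1.86-fold, was several times the SD of either group. In the LSD1 experiment the scramble arrays read 8.33, 8.96 and 8.91 and the LSD1 shRNA arrays 9.39, 10.04 and 9.51, a difference of 0.91 (SE 0.23), or 1.88-fold. All LSD1 shRNA arrays were above all scramble arrays, with scramble array A the lowest and LSD1 shRNA array 2 the highest.

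The further SLC2A3 probe sets had the same signs and smaller sizes. On 202497_x_at the HDAC5 experiment read 8.99, 8.94 and 8.90 in scramble and 8.38, 8.57 and 8.65 with HDAC5 shRNA, a difference of -0.41 (SE 0.07). It read 8.39, 8.94 and 9.03 in the LSD1 scramble arrays and 9.26, 9.55 and 9.35 with LSD1 shRNA, a difference of 0.60 (SE 0.18). Neither pair overlapped. On 202498_s_at the HDAC5 experiment read 7.90, 7.91 and 8.04 in scramble and 7.15, 7.47 and 7.43 with shRNA, a difference of -0.60 (SE 0.09) with no overlap. The LSD1 arrays of this probe set overlapped by a narrow margin: 7.41, 7.67 and 7.60 in scramble against 7.67, 8.43 and 7.86 with shRNA, a difference of 0.43 (SE 0.20) that was 0.20 without LSD1 shRNA array 2. Probe sets of this gene can also match SLC2A14, a near-identical neighbour, so the signal may hold both transcripts. The 2 probe sets annotated to both genes, left out by the rule, differed by -0.35 (SE 0.06) and -0.65 (SE 0.06) with HDAC5 shRNA and by 0.51 (SE 0.11) and 0.75 (SE 0.19) with LSD1 shRNA.

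SLC2A6 encodes GLUT6, a transporter held mostly on lysosomal membranes. On its only probe set, 220091_at, the HDAC5 experiment gave 6.87, 6.86 and 6.91 with scramble and 7.62, 7.51 and 7.60 with HDAC5 shRNA. The groups were well apart, with a difference of 0.70 (SE 0.06), or 1.62-fold, the largest upward difference among the member probe sets in that experiment. With LSD1 as the target, scramble arrays read 7.81, 7.94 and 7.94 and shRNA arrays 8.03, 7.87 and 7.68, which overlapped, with a difference of -0.03 (SE 0.12).

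SLC2A10 encodes GLUT10, a transporter of endomembranes that also carries dehydroascorbic acid and whose loss causes arterial tortuosity syndrome. On 221024_s_at HDAC5-experiment scramble arrays read 7.36, 7.31 and 7.30 and the HDAC5 shRNA arrays 6.06, 6.42 and 6.59. HDAC5 shRNA arrays were all lower, with means of 6.36 ± 0.27 against 7.32 ± 0.03 and a difference of -0.97 (SE 0.12), or 1.95-fold. In the LSD1 experiment the scramble arrays A, B and C read 6.67, 7.70 and 7.31 and the LSD1 shRNA arrays 3.60, 5.19 and 3.80. The means were 7.23 ± 0.52 and 4.20 ± 0.86, a difference of -3.03 (SE 0.45), or 8.17-fold, the 24th largest of 11963 genes. LSD1 shRNA array 2 was the highest of its group here too, and the difference without it was -3.53. All 3 LSD1 shRNA values lay under the lower quartile of their arrays (5.23 to 5.26), where RMA compresses ratios, so the size of the difference is not exact. SLC2A10 was the only member whose groups stood apart in the same direction in both experiments.

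HK1 and HK2 encode the hexokinases that trap glucose in the cell as glucose 6-phosphate. HK1 is the widely expressed form and HK2 the inducible one that many tumours raise. HK1 (200697_at) read 11.13, 11.14 and 11.09 in scramble and 10.96, 10.92 and 11.05 with HDAC5 shRNA, a difference of -0.14 (SE 0.04) with no overlap. For HK1 the LSD1 experiment read 11.30, 11.39 and 11.24 in scramble and 11.28, 11.44 and 11.25 with LSD1 shRNA, a difference of 0.01 (SE 0.08).

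HK2 differed from scramble by no more than 1.13-fold on either probe set. On 202934_at the HDAC5 experiment gave 10.46, 10.45 and 10.42 in scramble and, with shRNA, 10.60, 10.58 and 10.62, a difference of 0.16 (SE 0.04) with no overlap. The LSD1 experiment gave 11.14, 11.38 and 11.15 in scramble and 10.84, 11.23 and 11.05 with LSD1 shRNA, a difference of -0.18 (SE 0.12) with overlap. On 222305_at the values were 6.21, 6.28 and 6.28 in scramble and 6.38, 6.30 and 6.28 with HDAC5 shRNA, and 7.40, 7.33 and 7.08 in scramble and 7.24, 7.43 and 7.21 with LSD1 shRNA, both overlapping.

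**Figure D2:**
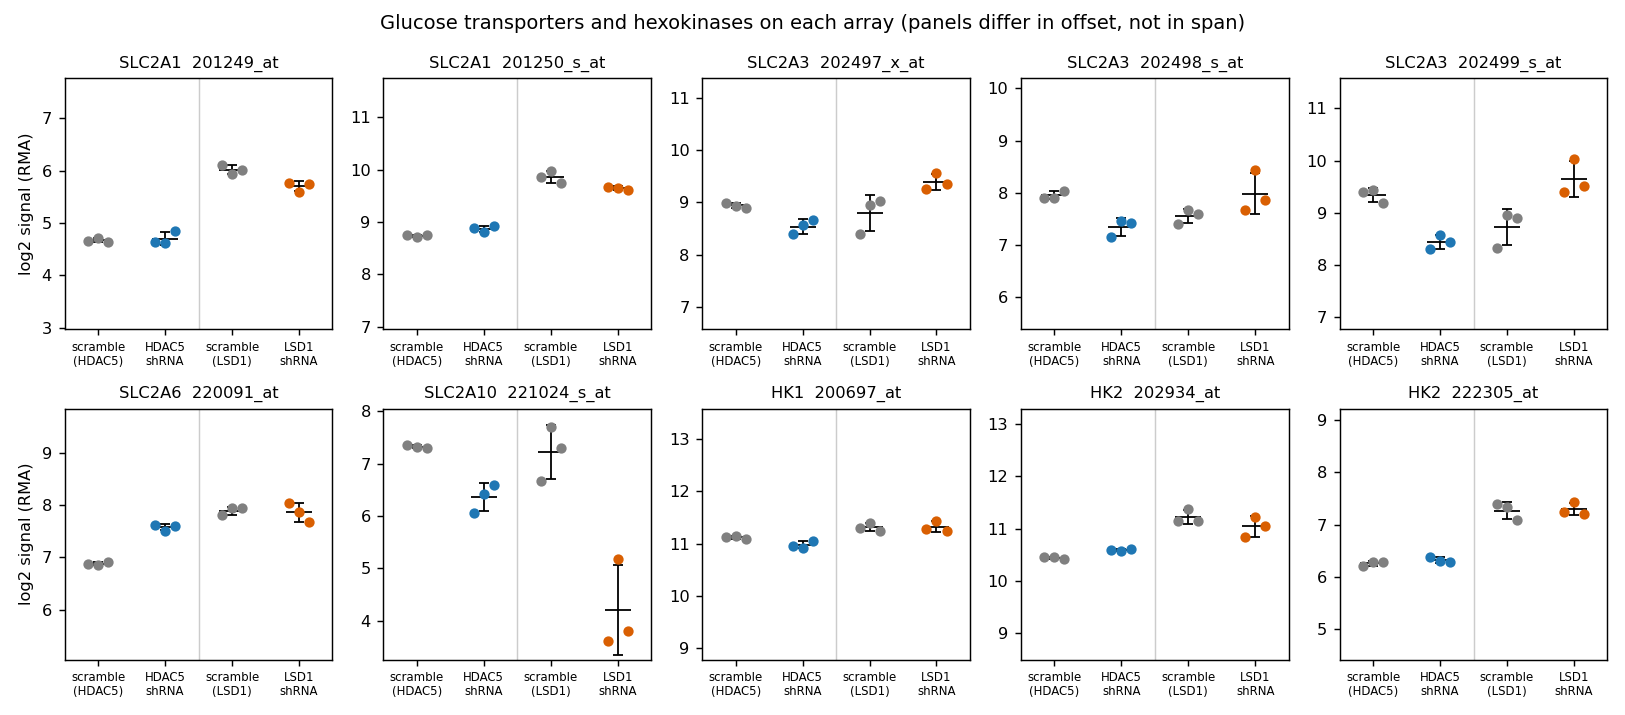
Signal (log2, RMA) of the transporter and hexokinase probe sets on each array, in 1 panel per probe set with the same span of log2 units; points are arrays, horizontal lines are group means and bars are ± 1 SD (n = 3). SLC2A10 with LSD1 shRNA lies at 3.60 to 5.19 against 6.67 to 7.70 in scramble, and SLC2A3 202499_s_at is lower with HDAC5 shRNA and higher with LSD1 shRNA.

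Read against all probe sets, the members stood in 2 very different backgrounds. With HDAC5 shRNA, 38.2% of 22215 probe sets passed an adjusted p of 0.05 (19% higher and 19.2% lower), and 10 of the 13 member probe sets did: 2 higher (SLC2A6 and HK2 202934_at) and 8 lower (all of TXNIP and SLC2A3, SLC2A10 and HK1). In that experiment 46% of probe sets had groups that did not overlap (22.5% higher and 23.5% lower), against 3 higher and 8 lower member probe sets. With LSD1 shRNA, 3.81% of probe sets passed (2.11% higher and 1.7% lower), and 1 of the 13 member probe sets did, SLC2A10. There the groups did not overlap for 24.5% of all probe sets (12.2% higher and 12.3% lower), against 5 higher member probe sets (TXNIP and 2 of SLC2A3) and 3 lower ones (SLC2A1 and SLC2A10). Since these contrasts chose the members, nothing is read from their counts. The median difference of the member probe sets was -0.41 with HDAC5 shRNA and 0.02 with LSD1 shRNA, beside -0.01 and 0.00 over all probe sets. The median size without sign was 0.60 and 0.43, beside 0.13 and 0.12.

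Some of these calls turned on the arrays used or on the fit. HK1 with HDAC5 shRNA did not pass when scramble array 1 or 2 or HDAC5 shRNA array 1 or 2 was left out, and SLC2A1 201250_s_at passed when HDAC5 shRNA array 2 or the dim probe sets were left out and in a gene-level fit. HK1 also did not pass without the mean-variance trend. SLC2A10 with LSD1 shRNA did not pass without scramble array B or C or LSD1 shRNA array 1 or 3. The count of all probe sets past the threshold with LSD1 shRNA, 847, was 329, 126 and 112 without scramble array A, B and C, and 189, 1062 and 230 without LSD1 shRNA array 1, 2 and 3. When the spread was shared in 1 fit over the 12 arrays, SLC2A10, HK1, HK2 202934_at and SLC2A3 202497_x_at did not pass with HDAC5 shRNA. In that fit TXNIP on all 3 probe sets, SLC2A3 202497_x_at and 202499_s_at, SLC2A1 201249_at and SLC2A10 passed with LSD1 shRNA.

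**Figure D3:**
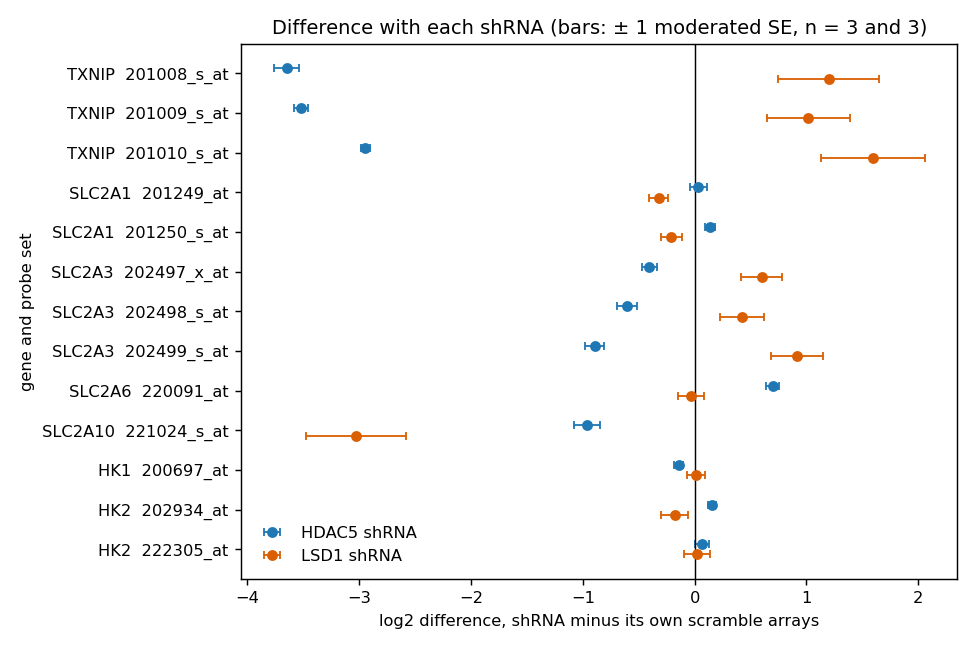
Difference of each member probe set between shRNA and its own scramble arrays (log2; points are differences of group means, bars are ± 1 moderated SE, 3 arrays against 3). TXNIP lies at -3.65 to -2.95 with HDAC5 shRNA and at 1.02 to 1.59 with LSD1 shRNA, and SLC2A10 at -0.97 and -3.03.

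The directions of TXNIP and SLC2A3 were opposite in the 2 experiments, which have no array in common. Groups stood apart in opposite directions for 6 of the 13 member probe sets (46.2%) and for 2129 of 22215 probe sets (9.58%), and in the same direction for 1 member probe set (7.69%) and for 1097 probe sets (4.94%). The 6 belong to TXNIP, SLC2A3 and SLC2A1 only, and probe sets of the same gene are not separate members. Since the differences with each shRNA chose the members, nothing is read from these shares. Among the members, SLC2A3 had the pattern most like that of TXNIP. Over the 12 arrays, after the mean of each experiment was taken from its 6 arrays, Pearson's r with TXNIP was 0.86 for SLC2A3, 0.75 for HK1, -0.09 for SLC2A10, -0.41 for HK2, -0.64 for SLC2A1 and -0.81 for SLC2A6. The arrays share their experiment, group and depth of signal, so these values are descriptions.

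Across 11956 other genes, those most like TXNIP by the same measure were ZFAND1 (r = 0.9888), the translation factor subunit EIF2S2 (0.9862), the zinc finger gene ZNF277 (0.9856), the ubiquitin ligase RNF41 (0.9810) and the trefoil factor TFF3 (0.9780). Their own differences were smaller than those of TXNIP: -0.72, -0.36, -1.16, -1.02 and -1.52 with HDAC5 shRNA and 0.41, 0.20, 0.49, 0.41 and 0.67 with LSD1 shRNA, in that order. Those most like SLC2A10 were the semaphorin and VEGF co-receptor NRP1 (r = 0.9834), the septin SEPTIN6 (0.9823), RAI14 (0.9820), the clock repressor PER2 (0.9804) and the insulin receptor INSR (0.9802). With HDAC5 shRNA these differed by -0.64, -0.56, -0.19, -0.58 and -0.24, and with LSD1 shRNA by -1.88, -1.34, -0.63, -1.59 and -1.40. The choice by r fixes these signs, which are given as a description. INSR was read there on 213792_s_at, and its second probe set differed by -0.14 (SE 0.14) with LSD1 shRNA.

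The rest of the pathway was read from 6 lists of 113 genes, of which 88 had a single-symbol probe set. With HDAC5 shRNA 25 of the 88 rose and 21 fell (limma, adjusted p under 0.05 over all probe sets), beside 43% of all 11963 genes (20.7% higher and 22.4% lower). With LSD1 shRNA 1 rose and 2 fell, beside 4.45% of all genes (2.65% higher and 1.8% lower). The median difference of the 88 genes was 0.01 and 0.00 (log2), beside -0.02 and 0.01 over all genes. No set test was run, so nothing particular to the lists is read from the counts. The counts per list below stand beside the same shares over all genes. Named below, per list and comparison, are up to 3 genes with the largest differences among those that passed, or the largest difference where 0 passed. MLX and MLXIP are added to these. A gene that did not pass can thus differ by more than a named one. Wherever named genes passed, their 3 shRNA arrays lay beyond all 3 scramble arrays.

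Of the alpha-arrestin and MLX network, 8 of 13 genes were measured: MLX, MLXIP, MLXIPL, MAX, MNT, MXD1, MXD3 and MXI1, and no alpha-arrestin. With HDAC5 shRNA 1 of these rose and 5 fell. The MAX-binding repressors MXI1 and MNT fell by 1.02 (SE 0.04, adjusted p = 1.56e-07) and by 0.52 (SE 0.04, adjusted p = 1.79e-05), and MLXIPL, which encodes the glucose-sensing factor ChREBP, fell by 0.29 (SE 0.08, adjusted p = 0.0177). The call of MNT was lost in 1 fit over the 12 arrays, and that of MLXIPL without scramble array 1 or 2. MLX, the partner of MondoA, fell by 0.28 (SE 0.04, limma, adjusted p = 0.000308), a call not followed over the alternative fits. MLXIP, the gene of MondoA itself, differed by -0.0005 (SE 0.04, adjusted p = 0.994) with HDAC5 shRNA. With LSD1 shRNA 0 of the 8 passed in limma (1 at an unadjusted p under 0.05), and the difference of MXI1 was 0.54 (SE 0.32, adjusted p = 0.426), which was 0.23 without LSD1 shRNA array 2 and 0.32 without scramble array A. MLX differed by -0.25 (SE 0.095, limma, adjusted p = 0.213) with LSD1 shRNA, where TXNIP was higher. All LSD1 shRNA arrays lay below all scramble arrays for MLX, the nearest at 11.26 against 11.27. MLXIP differed there by -0.0045 (SE 0.11, limma, adjusted p = 0.988). ARRDC4, the arrestin nearest to TXNIP in its control by glucose, was not among the genes measured.

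Of the thioredoxin and peroxiredoxin system, 7 of 14 genes rose and 3 fell with HDAC5 shRNA. PRDX1, a peroxiredoxin that thioredoxin reduces, rose by 0.56 (SE 0.03, adjusted p = 2.2e-06), and the mitochondrial glutaredoxin GLRX2 rose by 0.49 (SE 0.04, adjusted p = 1.04e-05). MAP3K5, the stress kinase ASK1 that thioredoxin holds inactive, fell by 0.77 (SE 0.05, adjusted p = 2.71e-06). With LSD1 shRNA 1 of the 14 passed: PRDX6 rose by 0.19 (SE 0.04, adjusted p = 0.046), and its second probe set differed by -0.09 (adjusted p = 0.57).

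Of the other hexose transporters, 9 of 13 were measured, and with HDAC5 shRNA 1 rose and 1 fell. SLC2A8, an intracellular transporter (GLUT8), rose by 0.28 (SE 0.07, adjusted p = 0.0116), and SLC50A1, the human SWEET transporter, fell by 0.32 (SE 0.05, adjusted p = 0.000847), and both calls were lost in 1 fit over the 12 arrays. With LSD1 shRNA 0 of the 9 passed (also 0 at an unadjusted p under 0.05), and the difference of SLC50A1 was -0.36 (SE 0.20, adjusted p = 0.389). It was -0.21 without LSD1 shRNA array 3, and -0.58 without array 2, where it passed.

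Of 15 genes of glucose phosphorylation and glucose 6-phosphate use, 4 rose and 4 fell with HDAC5 shRNA. GFPT1, which opens the hexosamine pathway, fell by 1.33 (SE 0.06, adjusted p = 4.51e-07), and PGLS, of the pentose phosphate pathway, fell by 0.54 (SE 0.07, adjusted p = 0.000191). H6PD, the hexose 6-phosphate dehydrogenase of the endoplasmic reticulum, fell by 0.61 (SE 0.08, adjusted p = 0.000205) on 1 probe set and differed by 0.06 (adjusted p = 0.69) on another. With LSD1 shRNA 0 of the 15 passed (1 at an unadjusted p under 0.05), and the difference of GFPT1 was 0.31 (SE 0.18, adjusted p = 0.419), which was 0.093 without LSD1 shRNA array 2.

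Of 23 genes of transporter trafficking and signalling, 4 rose and 5 fell with HDAC5 shRNA. The membrane fusion protein SNAP23 fell by 0.67 (SE 0.06, adjusted p = 3e-05), the vesicle GTPase RAB8A rose by 0.55 (SE 0.05, adjusted p = 3e-05) and the insulin receptor substrate IRS1 rose by 0.31 (SE 0.05, adjusted p = 0.000681). With LSD1 shRNA 2 fell. The insulin receptor INSR fell by 1.40 (SE 0.27, adjusted p = 0.0409) and the PI3-kinase regulatory subunit PIK3R1 by 0.48 (SE 0.09, adjusted p = 0.0442). A second INSR probe set differed by -0.14 (adjusted p = 0.66), and further PIK3R1 probe sets by -0.26 (adjusted p = 0.291) and -0.11 (adjusted p = 0.491).

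Of 19 genes of glycolysis below glucose 6-phosphate, 8 rose and 3 fell with HDAC5 shRNA. The pyruvate kinase gene PKM rose by 0.53 (SE 0.09, adjusted p = 0.00101), the phosphoglycerate mutase PGAM1 rose by 0.50 (SE 0.04, adjusted p = 1.31e-05) and the aldolase ALDOC fell by 0.32 (SE 0.06, adjusted p = 0.00286), a call lost for ALDOC in 1 fit over the 12 arrays. With LSD1 shRNA 0 of the 19 passed (5 at an unadjusted p under 0.05), and the largest difference was that of PDK3, a kinase that inhibits pyruvate dehydrogenase, at 0.41 (SE 0.16, adjusted p = 0.213). PDK3 passed in 1 fit over the 12 arrays, and its difference was 0.26 without LSD1 shRNA array 2. The 3 calls with LSD1 shRNA over all lists (PRDX6, INSR and PIK3R1) rest on the full set of arrays: 0 of the 88 genes passed without scramble array A, B or C or LSD1 shRNA array 1 or 3 (9 to 12 at an unadjusted p under 0.05), and 5 passed without LSD1 shRNA array 2, where PIK3R1 did not. Averaged over each gene's probe sets, these 3 genes did not pass, PRDX6 did not pass without the mean-variance trend and PIK3R1 did not after quantile normalization over the 6 arrays.

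**Figure D4:**
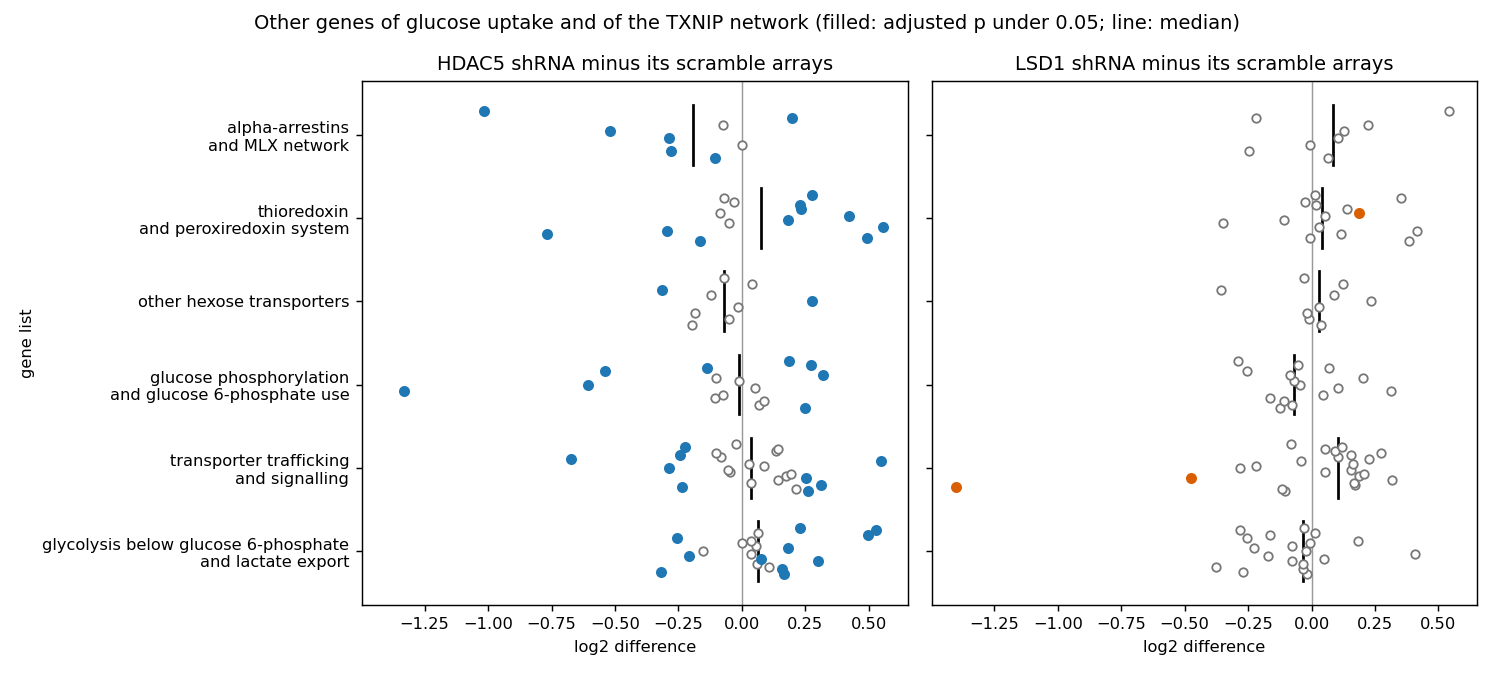
Difference between shRNA and its own scramble arrays (log2) for the 88 measured genes of the 6 pathway lists, 1 point per gene; filled points passed an adjusted p of 0.05 and vertical strokes are list medians. With HDAC5 shRNA GFPT1 (-1.33) and MXI1 (-1.02) lie farthest to the left, and with LSD1 shRNA INSR (-1.40) does.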

How the data were processed

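RNA of MDA-MB-231 cells was hybridised to 12 Affymetrix 3′ arrays, 1 per sample. The deposited values are log2 signals, 1 per probe set and array, made by the authors with RMA in the affy package, per the submitters' processing notes. RMA corrects background, equalises array distributions and summarises probes, which compresses ratios at low signal. The sources used here give no versions and do not say whether the 2 experiments were processed together.

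Of 22277 probe sets 62 controls were left out. The platform annotation gave 19064 probe sets 1 symbol, 1043 several and 2108 none. Symbols were updated by gene ID (19052 matched, 12 kept). All 12 columns were mapped to a sample, leaving 0.

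Each shRNA was compared with its scramble arrays in limma 3.58.1 (R 4.3.3; lmFit, eBayes with trend) over 22215 probe sets, 6 arrays per fit, with Benjamini-Hochberg adjustment and a threshold of 0.05, checked on simulated data. SEs are moderated. A pathway gene was read from its brightest probe set by the mean of the 12 arrays. The lower quartile (25%) of an array marked dim signal. The number of arrays limits the precision. Named are all members, the targeted genes, up to 3 called genes with the largest difference per list and comparison (or the largest difference where none was called), the 5 genes nearest to TXNIP and to SLC2A10 by r, and ARRDC4 where measured. MLX and MLXIP were added because the text introduces them as the drivers of TXNIP. The members, lists and tests were chosen with earlier results of these data known. Alternatives were another pooling of the spread, no trend, no dim probe sets, quantile normalization, gene-level fits, a replicate block and leaving out each array.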

Additional observations from a re-analysis of the deposited data

Results flagged for a closer look

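In 6 member probe sets every array of one shRNA group moved one way from its scramble arrays and every array of the other group moved the opposite way. The difference between the experiments itself was not tested. Given as the change with LSD1 shRNA minus the change with HDAC5 shRNA (log2), it was 4.85 for TXNIP 201008_s_at, 4.54 for TXNIP 201009_s_at and 4.54 for TXNIP 201010_s_at. For SLC2A3 it was 1.01 on 202497_x_at and 1.81 on 202499_s_at, and for SLC2A1 201250_s_at it was -0.35. Such opposite separation was found for 2129 of 22215 probe sets (9.58%). The differences with each shRNA chose the members, so nothing is read from the count of 6.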

How the results depend on the processing

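The difference of TXNIP 201010_s_at with HDAC5 shRNA was -3.37 as the mean of the gene's probe sets, against -2.95. Over all alternatives, 251 values of member probe sets moved by less than the SD between replicates, 9 moved by more and 0 changed the sign of a called value. Of 8489 probe sets called with HDAC5 shRNA, a fit sharing the spread over 12 arrays called 5539 and a gene-level fit, which tests fewer features, 5319; leaving out 1 array gave 7109 to 8088. With LSD1 shRNA (847) these were 3485 in the shared fit and 112 to 1062 with 1 array left out. The 46 pathway genes called with HDAC5 shRNA became 29 in the shared fit and 38 to 43 with 1 array left out. The 3 called with LSD1 shRNA became 12 in the shared fit, 0 with the mean of probe sets and 0 to 5 with 1 array left out. The cause of these shifts was not tested. Arrays of the HDAC5 experiment share replicate numbers: deviations of same-numbered arrays correlated at -0.0467, -0.205 and -0.144, so no shared deviation was seen. Deviations from a mean of 3 arrays cannot settle whether same-numbered arrays were prepared as pairs. A fit with replicate number as a block called 7621 probe sets and 39 pathway genes, and HK1 did not pass in it. The LSD1 scramble arrays carry letters, so no block could be fitted there. Dim signal limits the size given for SLC2A10 with LSD1 shRNA and the reading of SLC2A1 201249_at.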
